A study of Caenorhabditis elegans with 2 samples.

Results

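The genes described here encode the enzymes that remove superoxide and hydrogen peroxide in Caenorhabditis elegans: the superoxide dismutases sod-1 to sod-5, the catalases ctl-1 to ctl-3, and the peroxiredoxins prdx-2 and prdx-3. They were chosen by name, which gave 10 of the 19973 protein-coding genes on the nuclear chromosomes of the ce11 (WBcel235) assembly, and the rule uses no measured value. Binding of the transcription factor HLH-30 near them was read from a chromatin immunoprecipitation sequencing (ChIP-seq) experiment on whole animals, in which DNA crosslinked to a protein is pulled down with an antibody and sequenced. All material was of 1 group: hermaphrodite L4 larvae of strain OP433, with the genotype unc-119(tm4063) III; wgIs433, where wgIs433 is an integrated transgene that makes HLH-30 with GFP and FLAG at its C-terminus. The labels name no treatment and no change at the native hlh-30 gene, and the line is 1 transgenic insertion, so tagged protein from the transgene was measured. The pull-down used an anti-GFP antibody, according to the sample descriptions, on 2 biological replicates from separate biosamples. With 1 group there was no comparison of conditions, and in whole animals strong binding in few cells and weak binding in many cannot be told apart.

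HLH-30 belongs to the helix-loop-helix factors with a leucine zipper and is the worm counterpart of mammalian TFEB, known for driving autophagy and lysosome genes under fasting and stress. Factors of this class bind E-boxes, 6-base sites of the form CANNTG. Superoxide dismutases turn superoxide, a by-product of respiration, into hydrogen peroxide and oxygen, and catalases and peroxiredoxins then break the hydrogen peroxide down. In worms the enzymes are divided among compartments, with copper/zinc dismutases in the cytosol and outside the cell, manganese dismutases in mitochondria, and a catalase in peroxisomes.

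A thresholded HLH-30 summit, the point of highest signal of a peak in the authors' list filtered for reproducibility, lay within the gene or up to 5 kb upstream of its 5' end for 3 of the 10 genes: sod-1, sod-4 and prdx-2. Across all protein-coding genes the share with such a summit was 37.8%, so the count of 3 was near the background. The same 3 genes had a summit from 1000 bp upstream to 200 bp downstream of an annotated 5' end of a coding transcript, where the share of all genes was 20.1%. By family, 2 of 5 superoxide dismutase genes, 0 of 3 catalase genes and 1 of 2 peroxiredoxin genes had a summit in reach. The 5 distinct summits involved had pooled signal values of 41.2 to 143.6, in a list of 7168 peaks that ran from 31.9 to 1388 with a median of 61.8. The signal value is the authors' own score of peak strength, without a stated scale, and it is used here to order peaks within a list. Means and ratios over the 2 replicates also take their lists to share a common scale, which is not stated.

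The remaining 7 genes fell into steps. For sod-2, ctl-2 and prdx-3 the pooled list of 30000 peaks and background entries held an entry in reach, but none strong enough for the thresholded list. For ctl-3 there was 1 weak entry in the list of replicate 1 alone. For sod-3, sod-5 and ctl-1 no list held an entry in reach. The share of all genes with an entry in the pooled or replicate lists was not counted, so these steps have no background beside them. The stretches searched were 5994 to 8492 bp long with a median of 6526 bp, slightly under the median of 7027 bp over all genes.

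**Figure D1:**
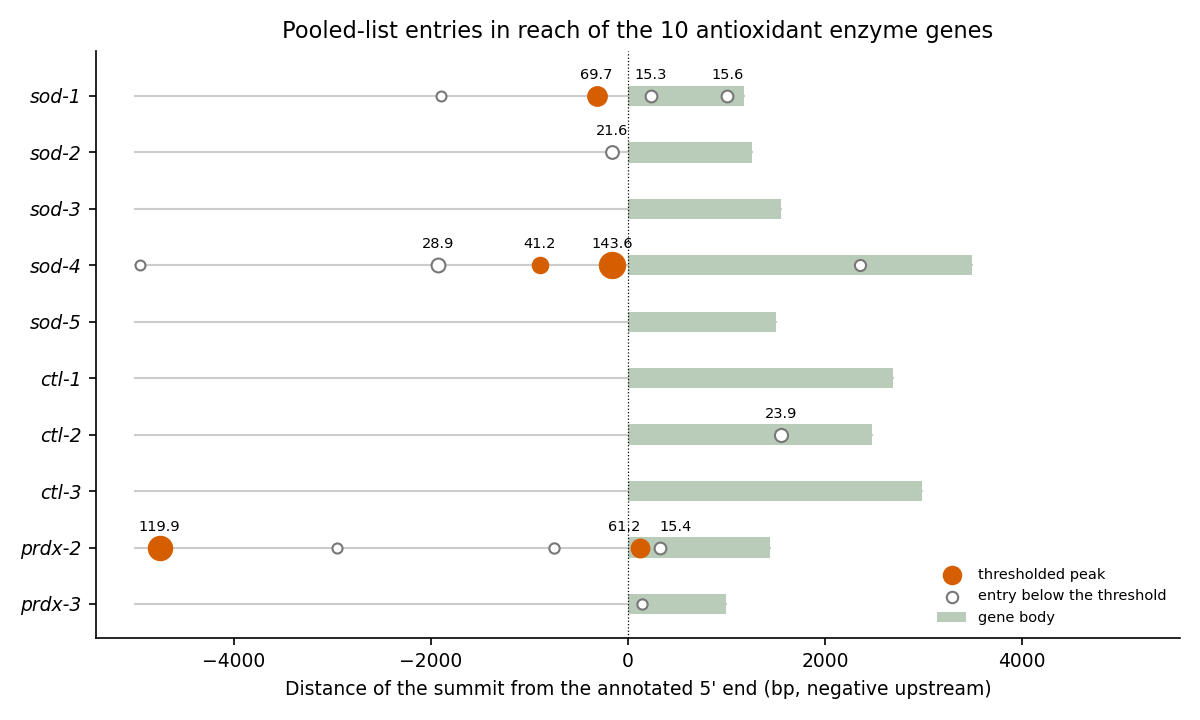
Positions of pooled-list entries along each of the 10 genes, drawn from 5000 bp upstream of the annotated 5' end to the 3' end, with distance from the 5' end in bp on the horizontal axis. Filled points are thresholded peaks and open points are entries below the threshold; point area grows with the pooled signal value, which is printed for the stronger ones. Only sod-1, sod-4 and prdx-2 have filled points, and the lines of sod-3, sod-5, ctl-1 and ctl-3 are empty.

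The DNA under the 5 thresholded summits is printed first, because the presence and form of an E-box differs among them. Each run covers 50 bp on either side of the pooled summit on ce11, 5' to 3', apart from the distal prdx-2 site, where 30 bases around the summit are given. Capitals mark any E-box, CANNTG, lying wholly inside the run.
sod-1, 319 bp upstream, chrII:6974156-6974256, plus strand: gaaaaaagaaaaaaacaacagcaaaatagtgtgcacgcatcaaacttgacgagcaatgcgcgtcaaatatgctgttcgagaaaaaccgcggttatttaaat
sod-4, 162 bp upstream, chrIII:9500487-9500587, plus strand: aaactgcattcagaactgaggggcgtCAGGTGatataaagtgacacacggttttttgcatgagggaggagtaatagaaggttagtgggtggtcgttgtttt
sod-4, 897 bp upstream, chrIII:9501222-9501322, plus strand: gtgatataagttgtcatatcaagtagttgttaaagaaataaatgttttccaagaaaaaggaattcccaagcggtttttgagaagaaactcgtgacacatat
prdx-2, 4755 bp upstream, chrII:5373426-5373455, plus strand: gccgaaaagacgtcagCAGTTGtatatctc
prdx-2, 122 bp inside the gene, chrII:5378267-5378367, plus strand: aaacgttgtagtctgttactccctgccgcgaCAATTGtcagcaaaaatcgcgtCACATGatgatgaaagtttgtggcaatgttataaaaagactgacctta
The windows of sod-1 and of the weaker sod-4 site hold no E-box. The stronger sod-4 window holds CAGGTG, which reads CACCTG on the other strand, and the prdx-2 windows hold 2 each, of which the distal site's second, CAGCTG, lies 18 bp left of the summit and outside the printed run.

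Among the cytosolic and extracellular copper/zinc dismutases, sod-4 had the site that was strongest of the 10 genes in the pooled list and in replicate 2, while in replicate 1 the distal prdx-2 site was stronger. The sod-4 gene (WBGene00004933), which encodes the secreted or membrane-bound form, lies at chrIII:9496884-9500375 on the minus strand. Its stronger peak spanned chrIII:9500436-9500620, 185 bp between genes, with the summit 162 bp upstream of the 5' end and 224 and 335 bp upstream of the other 2 annotated 5' ends. It stood at a signal value of 51.2 in replicate 1 and of 92.3 in replicate 2, or 71.7 ± 29.0 (SD, n = 2), and 143.6 in the pooled list. Both replicates held the peak, with replicate 2 higher by a ratio of 1.80, which 8.25% of thresholded peaks with an entry in both replicates reached or passed. It ranked 1021 of 7168, within the top 14.2% of the list. The replicate summits were 44 bp apart. No other protein-coding gene had this summit in reach.

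A second sod-4 peak, at chrIII:9501097-9501446, had its summit 897 bp upstream. The replicates gave it signal values of 19.3 (replicate 1) and 23.7 (replicate 2), or 21.5 ± 3.13 (SD, n = 2), and 41.2 in the pooled list, rank 5644. The replicates were close, and this was the weakest of the 5 summits and so the nearest inside the list's lower end of 31.9. The nearest outside it was also at sod-4, an entry 1925 bp upstream with a pooled value of 28.9 at rank 7790, named after its values were seen, with 7.70 in replicate 1 and 18.5 in replicate 2. In all, sod-4 had 5 pooled entries in reach, of which 2 passed the threshold. Of all protein-coding genes, 14.3% had 2 or more thresholded summits in reach.

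The sod-1 gene (WBGene00004930), encoding the main cytosolic copper/zinc dismutase, lies at chrII:6972706-6973887 on the minus strand. Its peak at chrII:6974031-6974380 had a summit 319 bp upstream of the outer 5' end and 723 bp upstream of the inner one, between genes. It stood at a signal value of 44.1 in replicate 1 and of 18.9 in replicate 2, or 31.5 ± 17.8 (SD, n = 2), and 69.7 in the pooled list, rank 3102. The direction of the difference was opposite to that at the stronger sod-4 site: here replicate 1 was higher, by a ratio of 2.33 that 3.05% of thresholded peaks reached or passed. Over all such peaks the median ratio of replicate 1 to replicate 2 was 1.00. The replicate summits were 26 bp apart. The summit also lay in reach of art-1, 1971 bp upstream of it, and of C15F1.5, 3591 bp upstream, both on the same strand as sod-1, and sod-1 had the nearest 5' end of the 3. A further 3 pooled entries of sod-1, with values of 5.46 to 15.6, stayed below the threshold.

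The prdx-2 gene (WBGene00006434), encoding the cytosolic typical 2-Cys peroxiredoxin, lies at chrII:5378195-5379631 on the plus strand and had 2 summits in reach, far apart. The distal peak, at chrII:5373368-5373521, was 154 bp wide and 4755 bp upstream, close to the 5 kb limit. Replicate 1 gave it a signal value of 61.7 and replicate 2 one of 59.0, or 60.3 ± 1.91 (SD, n = 2), and 119.9 in the pooled list, rank 1385. The replicates were nearly equal and their summits 6 bp apart, the closest of the 5 sites. This summit was nearer to other genes than to prdx-2. It fell 387 bp inside agt-2, a DNA alkyltransferase gene, in its 5' UTR. It was also 557 bp upstream of F09E5.3, 1827 bp upstream of algn-2 and 2699 bp upstream of F09E5.12.

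The proximal prdx-2 peak, at chrII:5378142-5378491, had its summit in an intron, 122 bp inside the gene from its outermost 5' end. That position was 106 bp and 525 bp upstream of the other 2 annotated 5' ends of prdx-2. Replicate 1 gave it a signal value of 19.7 and replicate 2 one of 45.0, or 32.4 ± 17.8 (SD, n = 2), and 61.2 in the pooled list, rank 3622. Replicate 2 was higher by a ratio of 2.28, which 4.06% of thresholded peaks reached or passed, and the replicate summits were 64 bp apart. The same replicate 1 entry also overlapped a pooled entry below the threshold, 324 bp inside the gene. Its value, and so the ratio, is not particular to the proximal peak. The proximal summit also lay 1710 bp upstream of pkc-3, an atypical protein kinase C gene, and 4490 bp upstream of agt-2. Another 3 pooled entries in reach of prdx-2 had values of 6.03 to 15.4. The closest gene upstream on the same strand, algn-2, ended 1083 bp before prdx-2.

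**Figure D2:**
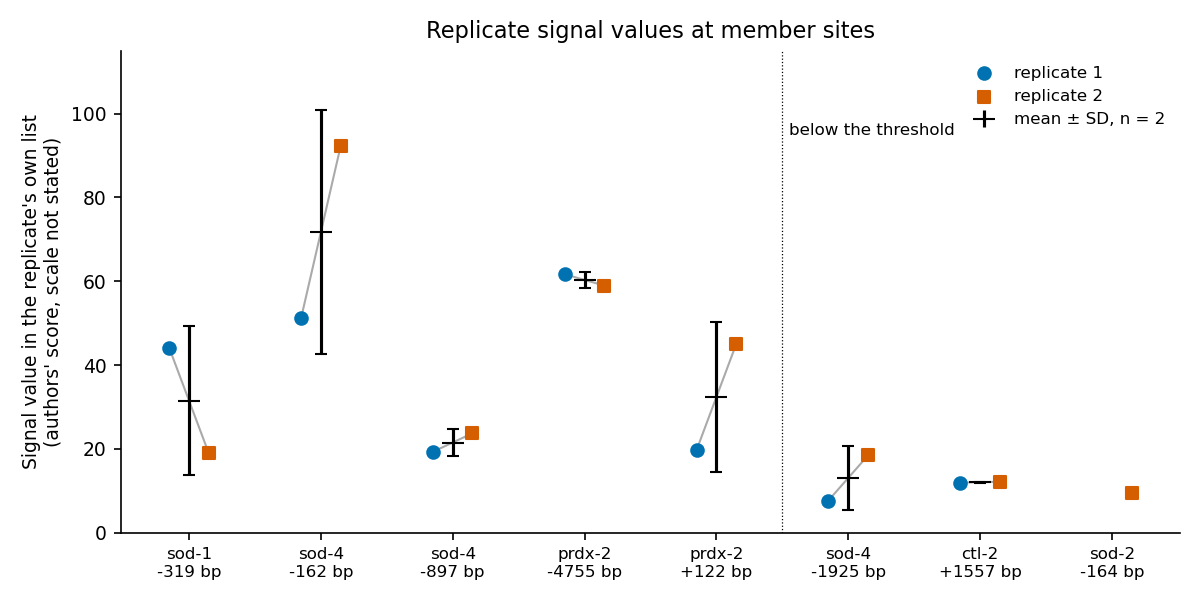
Signal values in each replicate's own list at the 5 thresholded sites and at the 3 strongest entries below the threshold, with gene and distance of the summit from the 5' end on the horizontal axis. Circles are replicate 1, squares replicate 2, and bars the mean ± SD of n = 2. The distal prdx-2 site and the ctl-2 entry have nearly equal values in both replicates, sod-1 is higher in replicate 1, and sod-2 has a point for replicate 2 alone.

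In prdx-3 (WBGene00011110), which encodes the mitochondrial peroxiredoxin and lies at chrIII:4407444-4408437 on the plus strand, the only pooled entry was close to background. Its summit fell 142 bp inside the gene, in a coding exon, with a pooled value of 7.09 at rank 21514 of 30000. The replicate values were 2.59 and 3.86, or 3.22 ± 0.892 (SD, n = 2), near the lowest values those lists hold, 2.42 and 2.11. A much stronger entry lay 2905 bp upstream at chrIII:4404369-4404708, in replicate 1 alone, with a value of 27.9 at rank 4247 of that list. No entry of replicate 2 or of the pooled list overlapped it. Such cases were few: 165 of the strongest 7168 entries of replicate 1 (2.30%) and 156 of those of replicate 2 (2.18%) had no overlapping pooled entry. The entry sat 103 bp upstream of R07E5.17 and 247 bp upstream of snfc-5, a SWI/SNF chromatin-remodelling subunit gene. The gene rnp-4 ended 120 bp upstream of prdx-3 on the same strand. The nearest thresholded summit, with a value of 213, was 3889 bp beyond the 3' end of prdx-3, on the side of mpc-1, a mitochondrial pyruvate carrier gene, 1131 bp upstream of it.

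The 3 catalase genes stand in tandem on the minus strand of chromosome II, in the order ctl-2 (WBGene00000831, chrII:14299556-14302027), ctl-1 (WBGene00000830, chrII:14303568-14306260) and ctl-3 (WBGene00013220, chrII:14307798-14310779), with gaps of 1540 and 1537 bp. Catalase CTL-2 works in peroxisomes and CTL-1 in the cytosol. The only pooled entry in reach of the 3 genes was at chrII:14300295-14300644, in an intron of ctl-2, with its summit 1557 bp inside the gene. It had values of 11.96 in replicate 1 and 12.2 in replicate 2, or 12.1 ± 0.151 (SD, n = 2), and 23.9 in the pooled list at rank 9018. Both replicates held it at nearly the same strength, and it fell short of the list's lower end of 31.9. Replicate 1 alone also held a weaker ctl-2 entry, 2357 bp inside the gene, at 6.80. For ctl-3 the single entry was 898 bp upstream, in replicate 1, at 6.53. The nearest thresholded summit, with a value of 168, lay 2992 bp beyond the 3' end of ctl-2 and 741 bp upstream of Y54G11A.7.

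The window under the ctl-2 entry is shown because, of the pooled entries in reach of the 10 genes, it is the only one with CACGTG within 50 bp of its summit, the E-box form most often tied to TFEB-class factors. Capitals again mark E-boxes, and the run covers 50 bp on either side of the summit on ce11.
ctl-2, 1557 bp inside the gene, chrII:14300420-14300520, plus strand: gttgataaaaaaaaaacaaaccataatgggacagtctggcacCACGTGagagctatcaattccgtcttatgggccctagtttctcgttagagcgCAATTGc
The nearest base of the CACGTG was 3 bp from the summit. Of the 22832 pooled entries below the threshold, 3.81% had CACGTG within 50 bp of the summit, against 11.0% of the thresholded ones.

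The catalase array is made of repeated sequence. Aligned at their 5' ends, ctl-1 and ctl-2 were identical over 3923 bp upstream and 340 bp downstream, an unbroken run of 4263 bp. Beyond the gap of 1540 bp upstream of ctl-2 the run lay inside ctl-1. Beyond the gap of 1537 bp upstream of ctl-1 it lay inside ctl-3, so those parts of the 2 gene bodies matched. Of the first 1000 bp of the genes, set side by side without gaps, 74.5% of positions matched. The upstream sequence they share is printed for its first 250 bases before the 5' end, on ce11, as read on the strand of the genes, with capitals marking CTTATCA, the site associated with DAF-16 targets.
ctl-1 and ctl-2, upstream of the 5' end, coordinates of the ctl-1 copy, chrII:14306261-14306510, minus strand: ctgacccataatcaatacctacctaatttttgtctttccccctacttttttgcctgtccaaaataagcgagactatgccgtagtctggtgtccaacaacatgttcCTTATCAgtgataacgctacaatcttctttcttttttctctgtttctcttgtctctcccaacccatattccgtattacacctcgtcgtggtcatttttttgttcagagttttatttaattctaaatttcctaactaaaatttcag
A read from inside these bases matches the genome at more than 1 place.

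Uniqueness was measured as the share of 31-base words in a gene's reach that occur once in the nuclear genome. It was 12.6% for ctl-1, 25.9% for ctl-2 and 48.1% for ctl-3. For the other 7 genes it ran from 84.4% for sod-2 to 100% for prdx-2, and the median over all protein-coding genes was 98.0%. There were 460 genes, 2.30% of all, at or below the value of ctl-3, and 22 of them (4.78%) had a thresholded summit in reach. At or below the value of ctl-2 there were 220 genes, of which 1 (0.455%) had one. How the authors treated reads with several places of origin is not given in the sources used here, and the part of this in the low count at the catalases was not tested. The values for sod-3 and sod-5, which also had no entry, were 97.3% and 87.4%.

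**Figure D3:**
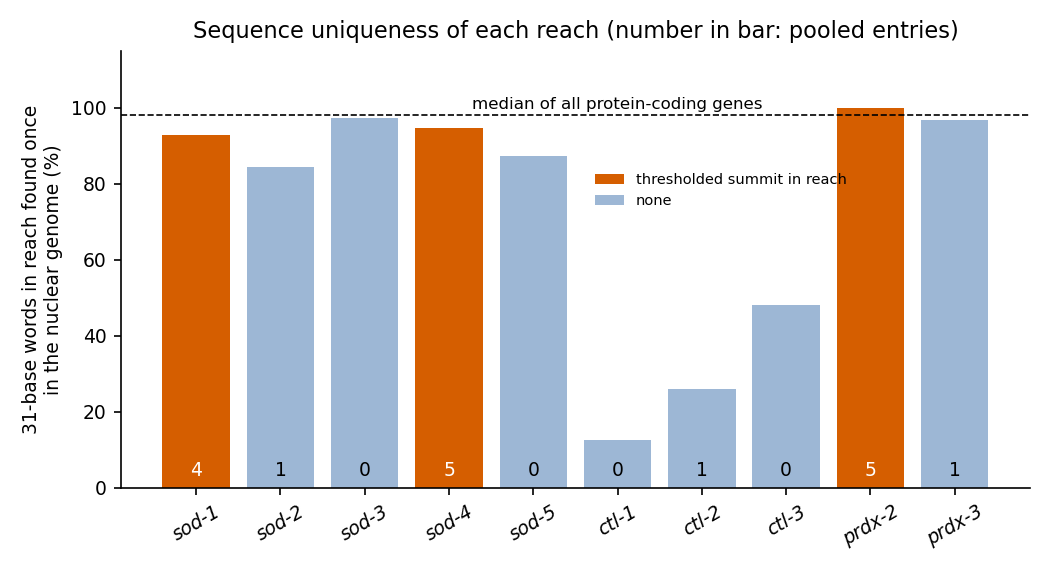
Share of 31-base words in the reach of each gene that occur once in the nuclear genome, in percent, with the number of pooled entries in reach printed in each bar and the median of all protein-coding genes, 98.0%, as a dashed line. Bars of genes with a thresholded summit in reach are orange. The 3 catalase genes stand at 12.6%, 25.9% and 48.1%, below the other 7 genes.

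Of the mitochondrial manganese dismutases, sod-3 (WBGene00004932) lies at chrX:17092753-17094306 on the plus strand and is a textbook target of the FOXO factor DAF-16. It had no entry in any list from its 3' end to 5 kb upstream. The nearest pooled entry of any strength was 17151 bp upstream with a value of 5.35, and the nearest thresholded summit was 22049 bp upstream with a value of 46.2. For comparison, the median distance from a gene's 5' end to the nearest thresholded summit was 6428 bp. That median covers all chromosomes, while sod-3 alone of the 10 genes is on X, for which no separate value was taken.

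The minor cytosolic copper/zinc dismutase gene sod-5 (WBGene00007036), at chrII:4417633-4419130 on the plus strand, had no entry either. The nearest was a thresholded summit with a value of 52.1, located 1042 bp beyond its 3' end and 84 bp upstream of bpnt-1. The 250 bases before the annotated 5' ends of sod-3 and sod-5 are printed on ce11, 5' to 3', because both carry the DAF-16 binding element GTAAACA, here in capitals as its reverse complement TGTTTAC, without an HLH-30 entry over it.
sod-3, upstream of the 5' end, chrX:17092503-17092752, plus strand: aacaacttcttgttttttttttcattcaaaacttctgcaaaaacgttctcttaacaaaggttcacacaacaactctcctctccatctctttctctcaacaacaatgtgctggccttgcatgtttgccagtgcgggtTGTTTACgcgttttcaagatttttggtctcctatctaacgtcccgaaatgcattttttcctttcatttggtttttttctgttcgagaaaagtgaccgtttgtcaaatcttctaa
sod-5, upstream of the 5' end, chrII:4417383-4417632, plus strand: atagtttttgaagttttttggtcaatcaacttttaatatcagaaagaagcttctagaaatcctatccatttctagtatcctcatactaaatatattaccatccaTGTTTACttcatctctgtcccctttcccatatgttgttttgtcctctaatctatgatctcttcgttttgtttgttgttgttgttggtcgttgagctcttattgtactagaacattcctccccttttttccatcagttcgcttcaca
The element began 114 bp upstream of sod-3 and 146 bp upstream of sod-5, and sod-3 had further copies 377 bp and 3852 bp upstream. GTAAACA, on either strand, was found in 4.77% of the 300-base promoters of all protein-coding genes, taken from 250 bp before to 50 bp after the 5' end.

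Together, 3 of the 10 genes had GTAAACA in that 300-base promoter: sod-2, sod-3 and sod-5. None of the 5 thresholded summits of the genes described had it within 50 bp, where 2.50% of all thresholded summits did. CTTATCA stood in the promoters of ctl-1 and ctl-2, which are the same sequence, and in 9.19% of all promoters. It was absent within 50 bp of the 5 summits, while 6.43% of all thresholded summits had it. A match is a string of letters and says nothing on its own about whether a factor was bound there.

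The other manganese dismutase gene, sod-2 (WBGene00004931), which encodes the main mitochondrial form, lies at chrI:8434550-8435807 on the plus strand. It had 1 pooled entry, 164 bp upstream and inside an intron of dpt-1, with a pooled value of 21.6 at rank 9740. Replicate 2 held it at 9.51, and replicate 1 had no overlapping entry. The summit was 21 bp from a GTAAACA. The nearest thresholded summit was 7608 bp upstream with a value of 292, and it stood 850 bp upstream of F02E9.5.

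**Figure D4:**
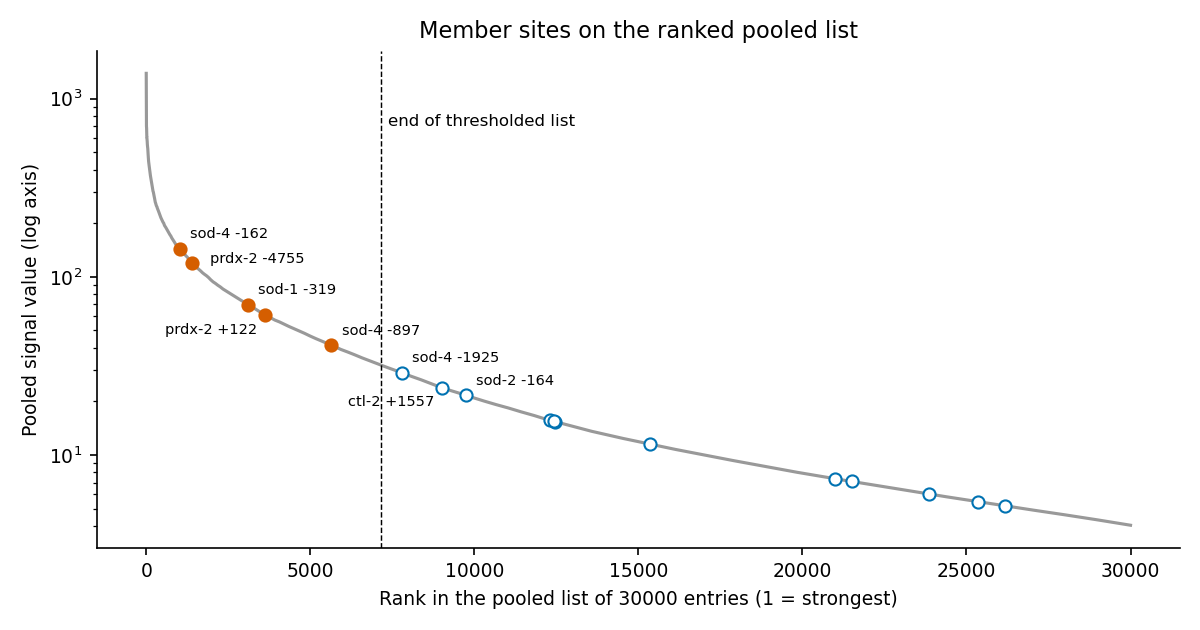
Pooled signal value on a log axis against rank for the 30000 entries of the pooled list, with entries in reach of the 10 genes as points labelled by gene and distance from the 5' end in bp. Filled points are thresholded, and the dashed line is the end of the thresholded list at rank 7168. The 5 thresholded sites run from rank 1021 to rank 5644, and the strongest entries beyond the line belong to sod-4, ctl-2 and sod-2.

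E-boxes of the forms CACGTG and CACATG, searched on both strands, stood within 50 bp of 25.3% of all thresholded summits and of 1 of the 5 summits described here. That one was the proximal prdx-2 site, with CACATG 3 bp from the summit. Its other form, CAATTG, lay 14 bp away. At the stronger sod-4 site CACCTG lay 19 bp from the summit, a form present near 4.38% of all thresholded summits. The distal prdx-2 site held CAACTG at 2 bp and CAGCTG at 18 bp, forms present near 6.64% and 3.95% of all summits. At the weaker sod-4 site a CACATG had its nearest base 48 bp away and ran past the window's edge. Over the whole reach of the 10 genes there were 36 distinct CACGTG or CACATG sites, of which 1 lay wholly within 50 bp of a thresholded summit and 3 inside any pooled entry. The same shares over the reach of all genes were not counted, so whether these are low or high is not known. Of the 36, 18 were in reach of the catalase genes, with 1 in a pooled entry. Some of these are copies in the repeated sequence of the array, such as the CACGTG 1439 bp upstream of both ctl-1 and ctl-2.

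Other antioxidant and redox genes were listed for comparison, covering glutathione peroxidases, thioredoxins, glutaredoxins, glutathione synthesis, iron storage, NADPH supply and their regulators. Of these 35 genes, 21 had a thresholded summit in reach, beside 37.8% of all genes, and 11 had one in a promoter, beside 20.1%. The list was chosen with earlier results of these data known, and the lengths searched were not matched to those of all genes. All 5 glutaredoxin genes had a summit, as did 3 of 8 glutathione peroxidase genes, 2 of 5 thioredoxin genes and 1 of 2 thioredoxin reductase genes. For 3 of the 5 glutaredoxin genes, however, the 5' end of another gene was nearer to the summit, and 2 of the 5 had a promoter summit. Another gene was also nearer to the strongest summit of the 2 thioredoxin genes and of 1 of the 3 glutathione peroxidase genes. A promoter summit was present at 0 thioredoxin genes, 1 glutathione peroxidase gene and 1 thioredoxin reductase gene. Over the list, another gene's 5' end was nearer for 9 of the 21. The median of the strongest value per gene was 65.1 over those 21, and 76.4 over all genes with a summit. The 14 without one were gpx-2, gpx-3, gpx-5, gpx-7, gpx-8, trx-2, trx-4, trx-5, trxr-2, prdx-6, gcs-1, sesn-1, bli-3 and txl-1. They include prdx-6, the remaining peroxiredoxin gene, and gcs-1, the rate-limiting enzyme of glutathione synthesis and a textbook SKN-1 target. Like sod-3, the genes gpx-3, gpx-5 and gpx-7 are on X, and no other comparison gene is.

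The strongest value in the list was at memo-1, 1281 bp upstream, with 184 in replicate 1, 112 in replicate 2 and 293 in the pooled list. At skn-1, the Nrf counterpart that drives phase II detoxification genes, it was 215 in an intron, with 122 and 91.5 in the replicates, and 4 summits lay in reach. The ferritin gene ftn-2 had 198 at 1152 bp upstream, with 110 and 92.0 in the replicates and a CACGTG in the window. For idh-1, an NADP-dependent isocitrate dehydrogenase gene, it was 174, with 92.5 and 80.1 in the replicates, but the summit was 3425 bp upstream and stood nearer to F38E11.9. At daf-16 it was 133 at 1906 bp upstream, with 51.1 and 85.0 in the replicates, and 14 summits lay in reach. Like skn-1, idh-1 had 4 summits in reach, and the highest number among the 10 genes was 2, but the lengths searched were not matched. By strongest value, sod-4 stood between idh-1 and daf-16, prdx-2 just below daf-16, and sod-1 under the median of all genes with a summit. The prdx-2 value is that of its distal site, which was nearer to other genes. Its proximal site, at 61.2, was also under that median.

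**Figure D5:**
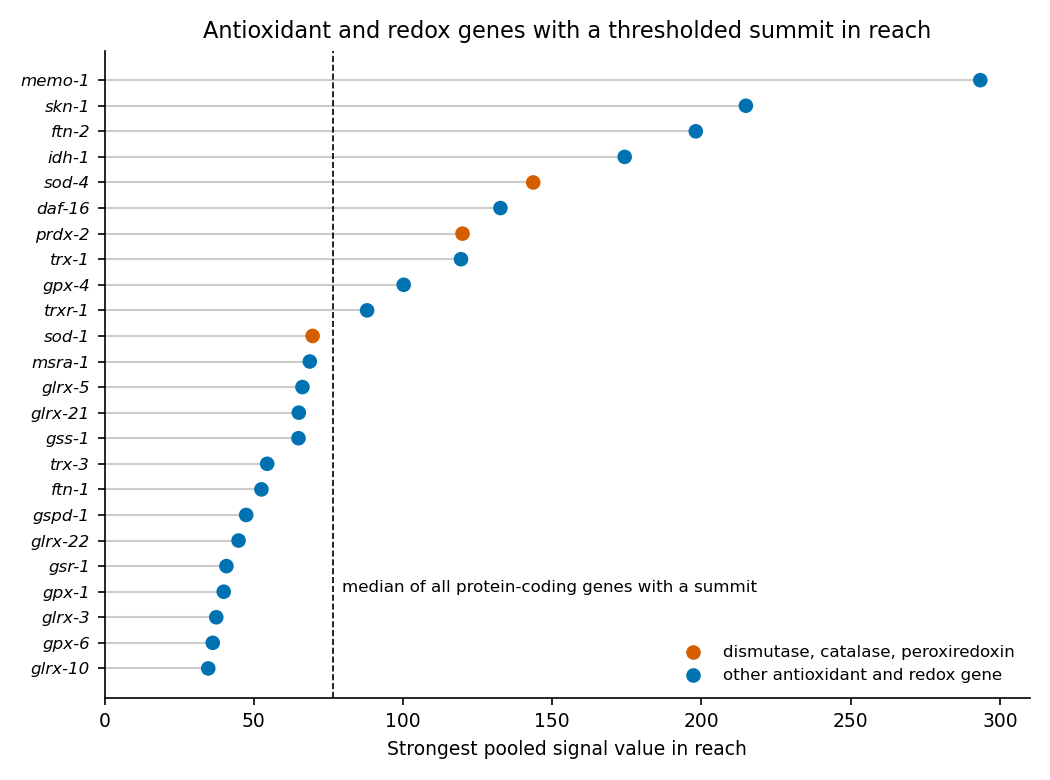
Strongest pooled signal value of a thresholded summit in reach for the 21 other antioxidant and redox genes (blue) and the 3 superoxide dismutase and peroxiredoxin genes (orange) that have one, with the median of all protein-coding genes that have a summit, 76.4, as a dashed line. The values run from 293 at memo-1 downward, with sod-4 at 143.6, prdx-2 at 119.9 (its distal site, nearer to other genes) and sod-1 at 69.7.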

How the data were processed

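ChIP-seq peak lists on ce11 were used for replicate 1, replicate 2, both pooled, and the list thresholded by the irreproducible discovery rate. Lists on ce10 were not used. The signal value of each peak was deposited by the authors as their own score. The deposited −log10 q-value was 4.30 for all thresholded peaks and could not order them. In the pooled list 10011 entries had this highest value. They include the below-threshold entries at sod-2, at ctl-2 and 1925 bp upstream of sod-4, while the prdx-3 entry had 0.503. The thresholded peaks were the 7168 strongest of the pooled list. Per the text deposited with the samples, peaks were called against a control alignment. The caller, the aligner and the threshold were not given in the sources used here. No file used holds read counts, so the depth is unknown, and means over 2 replicates give no test. Replicate values are those of the overlapping entry (1 bp or more) with the nearest summit in each replicate's own list.

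Genes, transcripts and positions came from Ensembl release 115 on WBcel235, and sequence from the RefSeq copy of that assembly. Summits were placed with Python 3.11.15, pandas 2.3.3 and numpy 2.4.6, and the placement was tested on simulated data. Because of trans-splicing in worms, annotated 5' ends can differ from the starts of transcription. All 10 genes and each thresholded summit in their reach are described, below-threshold entries by number and the strongest per gene, and in the comparison list the 5 strongest genes and those without a summit. The genes and the lists were chosen with earlier results of these data known. Alternatives changed the reach, promoter window, E-box window and list.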

Additional observations from a re-analysis of the deposited data

How the results depend on the processing

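Of 31 alternative values, 23 stayed within 1.5 times the reported value and 8 did not. With the strongest 3584 peaks of the thresholded list, the summits in reach fell from 5 to 3, those with CACGTG or CACATG from 1 to 0, beside 29.2% of all such peaks, and the comparison genes with a summit from 21 to 12, while the share of all genes fell from 37.8% to 23.4%. A reach of 1 kb also gave 12 comparison genes, beside 23.1% of all genes, a reach of 2 kb gave 15, beside 27.9%, and the nearest gene alone gave 14, beside 23.5%. Within 100 bp of the summit 2 of the 5 had CACGTG or CACATG, beside 34.1% of all summits, and with CACGTG alone within 50 bp 0 did, beside 11.0%. The peak strongest in the pooled list, at sod-4, had 51.2 to 92.3 with either replicate left out. Both values were counted as outside 1.5 times the pooled 143.6, but replicate lists run on a lower scale. The lowest of the 7168 strongest entries was 16.9 in replicate 1 and 17.2 in replicate 2, beside 31.9 in the pooled list. Without replicate 2 the distal prdx-2 site, at 61.7, was above the sod-4 peak. sod-1, sod-4 and prdx-2 had a summit under each alternative for reach, list and nearest gene; without replicate 2 prdx-3 joined them, making 4. Among the strongest 3584 peaks, 2 of the 10 genes had a promoter summit, beside 11.7% of all genes, since the proximal prdx-2 peak was not among them. Smaller lists and windows hold fewer summits by construction, and other causes were not tested. No paired analysis was possible because there is only 1 group. Depth is unknown, so how many reads stand behind an absent entry could not be given.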
